A study of Mus musculus with 6 samples.

Results

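The 10 regulators and markers of the epithelial-mesenchymal transition (EMT) described here were Snai1, Snai2, Zeb1, Zeb2, Twist1, Twist2, Vim, Fn1, Epcam and Esrp1. They were taken by name and not by a cutoff on their values, though earlier results of these data were known. They were 10 of the 36028 genes with a usable probe on the array. The files held 12 probes with these names, of which 11 were usable. The cells were N18-Fms, labelled N18-CFMS, a luciferase-expressing subclone of the clonal C2H line derived from a prostate tumor of the TRAMP mouse. They carried murine c-fms, the gene of the CSF-1 receptor, introduced by a retrovirus, and had been sorted by flow cytometry for the receptor. The 3 groups were unstimulated cells and cells given recombinant mouse CSF-1 at 100 ng/mL for 24 h or 48 h, all grown with serum and dihydrotestosterone, with 2 arrays per group and RNA from 2 independent experiments. The times are those of the sample labels, and the methods of the study give shorter ones. Every group was therefore the same receptor-transduced population of one clonal line, and neither cells without the receptor nor another clone were on these arrays.

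In EMT, epithelial cells lose their junctions and polarity and take on the shape and motility of mesenchymal cells. The zinc finger factors Snai1 (Snail) and Snai2 (Slug), the zinc finger homeobox factors Zeb1 and Zeb2 and the basic helix-loop-helix factors Twist1 and Twist2 drive it, largely by repressing epithelial genes through DNA sites called E-boxes. Vimentin and fibronectin are mesenchymal products, while the adhesion molecule Epcam and the splicing factor Esrp1 belong to the epithelial state. CSF-1 is known above all as the growth and survival factor of macrophages.

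Snai2 was the only one of these genes whose transcript changed past the adjusted threshold. It fell 2.52-fold after 24 h of CSF-1 and 1.87-fold after 48 h. Vim and Fn1 were far above background in all 3 groups, with no called change. Epcam was not well above background on 5 of the 6 arrays. Twist2 and Vim were lower on every stimulated array than on both unstimulated arrays, as Snai2 was, but did not pass the adjusted threshold. Separation from the unstimulated arrays, in either direction, was common. The 24 h arrays showed it for 59% of all tested genes, and the 48 h arrays for 58.8%.

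Of the 10 genes, 6 had a start site in the RefSeq promoter table (build GRCm38.p6), with 9 promoters of 300 bases in all, from 250 bases before to 50 bases after the start. The E-box read by Snail and Zeb factors was searched as CACCTG, or CAGGTG on the other strand. It was held by 2 of the 9 promoters, and by 20.2% of the 32851 promoters in the table. Both promoters are shown because they belong to a factor that reads this E-box and to an epithelial gene at the edge of detection in these cells. The capitals mark the E-box, both sequences are given 5′ to 3′ on the + strand, and the letters alone do not show that a factor binds there.
Snai1, chr2:167537945-167538244: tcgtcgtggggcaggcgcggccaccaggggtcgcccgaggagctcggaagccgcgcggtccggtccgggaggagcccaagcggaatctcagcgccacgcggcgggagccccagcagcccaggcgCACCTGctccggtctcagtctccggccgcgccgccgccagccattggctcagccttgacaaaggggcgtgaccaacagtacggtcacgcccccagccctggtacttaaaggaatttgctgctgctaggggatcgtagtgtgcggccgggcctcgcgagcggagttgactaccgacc
Epcam, chr17:87635729-87636028: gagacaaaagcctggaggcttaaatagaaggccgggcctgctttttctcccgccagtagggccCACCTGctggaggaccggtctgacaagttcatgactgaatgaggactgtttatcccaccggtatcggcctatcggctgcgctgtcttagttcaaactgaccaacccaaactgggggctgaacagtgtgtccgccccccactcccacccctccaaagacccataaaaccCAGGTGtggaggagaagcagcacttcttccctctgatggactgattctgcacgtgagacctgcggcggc
In Snai1 the E-box begins at position -126 from the start site. In Epcam the first begins at -187 and the second at -19. The promoters of Zeb2, Twist1, Twist2 and Vim in the table do not hold these letters.

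Each array had 59305 spots other than controls, of which 58.7% to 72% were well above background and 0 were saturated. Replicate arrays had a Pearson correlation between 0.982 and 0.9844 across 55378 probes, which are not independent, and 0 probes had identical values. The first 24 h array lay on one slide and the other 5 arrays on another. Levels are given as the log2 of the spot signal minus the 75th percentile of the same array, so that 0 is that percentile, and a level of one probe cannot be set against that of another. A difference of mean levels was fitted by limma, its p adjusted by Benjamini-Hochberg across the 24648 genes tested, and a gene was called when this adjusted p was under 0.05. With 2 arrays on each side, the smallest p of a 2-sided exact permutation test is 0.333. In cultures measured in bulk, fewer cells with a transcript and less transcript per cell cannot be told apart. Csf1r, the transduced gene, was well above background on all arrays by each of its 3 probes. The brightest had levels of 4.88 and 5.13 in unstimulated cells, 5.12 and 5.34 at 24 h, and 4.96 and 4.9 at 48 h.

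Among all genes tested, 3454 were called at 24 h, which is 14%, and 3441 at 48 h, also 14%. Of these, 1977 rose and 1477 fell at 24 h, and 1621 rose and 1820 fell at 48 h. The split depended on the scaling. With centring on the median of each array, 1197 rose and 3706 fell at 24 h, as that scaling moved the median of all genes by -0.28 on the log2 scale. The split was 1780 to 2164 after normexp background correction with quantile normalization. Of the 9 regulators tested, 1 was called at 24 h and 1 at 48 h, Snai2 both times, beside 5.99% and 7.38% of all genes tested that were called lower. None was called higher, where 8.02% and 6.58% of all genes were, and at unadjusted p under 0.05 limma gave 2 regulators at 24 h, Snai2 and Twist2, and 1 at 48 h, Snai2, where 7721 and 7613 of all 24648 genes had such a p. By the rule in the study's legend, an unadjusted p under 0.05 with a change of at least 2-fold, the regulators called were 1 at 24 h, Snai2, and 0 at 48 h, beside 7.68% and 6.48% of all genes (5.86% and 4.66% higher, 1.83% lower at each time). Between 24 h and 48 h no regulator was called by limma's adjusted p, as was no gene of the array. By the legend's rule 0 regulators passed, and 2.27% of all genes did. At an unadjusted p under 0.05 limma gave 1 regulator, Snai2, and 3357 of all genes. The median change of the 9 regulators was 0.03 at 24 h and -0.14 at 48 h on the log2 scale, and that of all genes tested was 0.037 and -0.044.

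**Figure D1:**
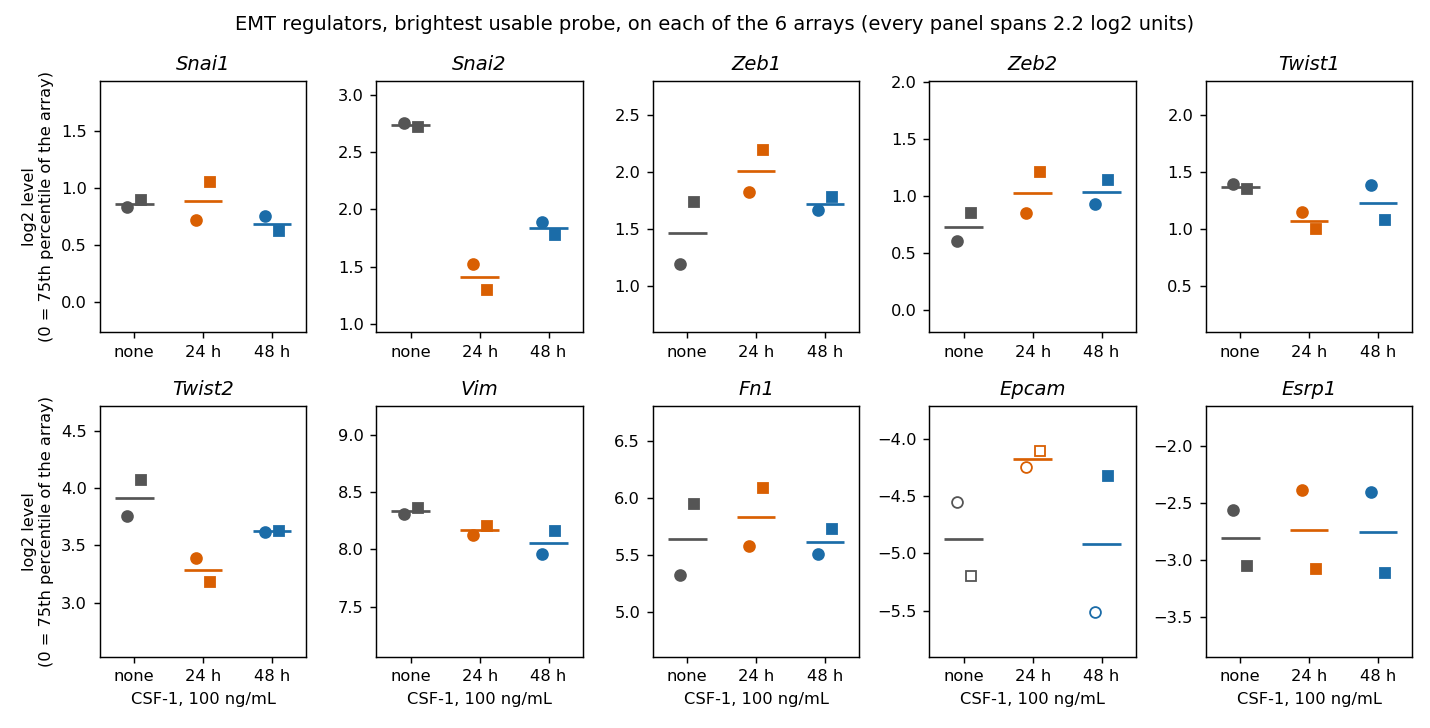
Level of each regulator on each of the 6 arrays, as log2 signal minus the array's 75th percentile (y axis, of the same span in every panel), by time with CSF-1 at 100 ng/mL (x axis; none is unstimulated). Circles are replicate 1 and squares replicate 2, bars are group means, and open symbols are spots not well above background. The Snai2 levels on the stimulated arrays, 1.29 to 1.89, all lie below the unstimulated 2.72 and 2.76.

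The Snail family split. Snai2, whose probe lies at chr16:14709361-14709420 of build mm9, had levels of 2.76 and 2.72 on the unstimulated arrays, 1.52 and 1.29 at 24 h, and 1.89 and 1.78 at 48 h. The spot signals behind them were 3730 and 4020, then 1640 and 1460, then 2050 and 2070. The 3 groups did not overlap, with the unstimulated arrays highest and the 24 h arrays lowest. The change at 24 h was -1.33 on the log2 scale (SE 0.13, 95% interval -1.65 to -1.01, limma adjusted p = 0.00565). At 48 h it was -0.90 (interval -1.22 to -0.59, limma adjusted p = 0.0145). From 24 h to 48 h the level differed by 0.43 (interval 0.11 to 0.75), which did not pass the adjustment (limma, unadjusted p = 0.0176, adjusted p = 0.257). With median centring the 24 h change was -1.62, and -1.37 relative to the median of all genes. That distance is the same with the 75th percentile scaling by construction, as both scalings subtract a constant from each array. Within the slide that held 5 of the 6 arrays, the difference was -1.45 at 24 h. That value rests on 1 array at 24 h, and its limma adjusted p of 0.0243 takes the spread from the other groups, so that the lone array is assumed to vary like them.

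How firmly Snai2 was called rested on the replicates. The direction was the same whichever array was left out, with changes from -1.45 to -1.22 at 24 h and from -0.96 to -0.85 at 48 h. The limma adjusted p at 24 h was 0.0502 without the second unstimulated array and 0.0566 without the second 24 h array. At 48 h it was 0.0845 and 0.0839 without the first and the second unstimulated array, 0.0932 and 0.0794 without the first and the second 48 h array, and 0.0516 without the second 24 h array, which is not in that contrast but enters the shared spread.

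Snai1, with a probe at chr2:167368073-167368132 of mm9, showed no such fall. Its levels were 0.83 and 0.89 in unstimulated cells, 0.72 and 1.05 at 24 h, and 0.75 and 0.62 at 48 h. The 24 h arrays lay on both sides of the unstimulated ones, and the 48 h arrays were below them. The difference was 0.03 at 24 h (95% interval -0.34 to 0.40) and -0.17 at 48 h (interval -0.54 to 0.20), so a change of 2-fold in either direction lay outside both intervals.

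The Twist factors were lower at 24 h without passing the adjustment. Twist2, at chr1:93744519-93744577 of mm9, had levels of 3.76 and 4.07 on the unstimulated arrays, 3.39 and 3.18 at 24 h, and 3.62 and 3.63 at 48 h. As for Snai2, the groups did not overlap and the 48 h arrays lay between the others. The difference was -0.63 at 24 h (SE 0.15, interval -1.01 to -0.25, limma adjusted p = 0.0517) and -0.30 at 48 h (interval -0.68 to 0.08, limma adjusted p = 0.255). With median centring the 24 h difference was -0.91 and passed (limma adjusted p = 0.0196). Relative to the median of all genes it was -0.67, which is the same under both scalings by construction.

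Twist1, at chr12:34644411-34644470 of mm9, had levels of 1.4 and 1.35 in unstimulated cells, 1.15 and 1 at 24 h, and 1.39 and 1.08 at 48 h. The 24 h arrays lay below the unstimulated ones and the 48 h arrays overlapped them. The difference was -0.30 at 24 h (interval -0.67 to 0.07) and -0.14 at 48 h (interval -0.51 to 0.23). It was called at 24 h only with median centring (-0.58, limma adjusted p = 0.0381), where the difference relative to all genes was -0.34.

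The Zeb factors leaned the other way, also without a call. Zeb1 had levels of 1.20 and 1.74 in unstimulated cells, 1.83 and 2.2 at 24 h, and 1.67 and 1.78 at 48 h. The 24 h arrays lay above both unstimulated arrays, which themselves were about as far apart as the group means. The difference was 0.55 at 24 h (SE 0.22, interval -0.02 to 1.11, limma adjusted p = 0.17) and 0.25 at 48 h (interval -0.31 to 0.82).

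Zeb2 was measured by 2 probes. The brighter, at chr2:44842774-44842833 of mm9, had levels of 0.61 and 0.85 without CSF-1, 0.85 and 1.21 at 24 h, and 0.93 and 1.14 at 48 h. Its 24 h arrays began where the unstimulated arrays ended, and its 48 h arrays were above them. The difference was 0.30 at both times (interval -0.15 to 0.75, limma adjusted p = 0.324 and 0.319). The dimmer probe, at chr2:44840038-44840097, differed by 0.23 and 0.28, with groups that overlapped.

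The transcripts of the mesenchymal products of the group were far above background from the start. Vim, which encodes the intermediate filament protein vimentin and whose probe lies at chr2:13504232-13504291 of mm9, had levels of 8.31 and 8.36 in unstimulated cells, 8.13 and 8.21 at 24 h, and 7.96 and 8.16 at 48 h. The spot signals ran from 138000 to 201000, with no spot flagged as saturated. Every stimulated array was below both unstimulated arrays, by little. The difference was -0.16 at 24 h (interval -0.47 to 0.14) and -0.27 at 48 h (interval -0.58 to 0.03, limma adjusted p = 0.198), so a fall of 2-fold lay outside both intervals.

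Fn1, which encodes the matrix glycoprotein fibronectin and whose probe lies at chr1:71632116-71632175 of mm9, had levels of 5.33 and 5.95 without CSF-1, 5.58 and 6.09 at 24 h, and 5.51 and 5.73 at 48 h. The groups overlapped at both times, and the second array was the higher one in each. The difference was 0.19 at 24 h (interval -0.49 to 0.88) and -0.03 at 48 h (interval -0.71 to 0.66).

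Counting all 9 tested regulators by arrays instead of by the fit, 5 did not overlap between 24 h and unstimulated cells, with 4 below and 1 above, where 59% of all genes tested did not overlap. At 48 h the numbers were again 5, 4 and 1, where 58.8% of all genes did not overlap. Between the 2 times, 3 did not overlap, against 47.9% of all genes. These shares of the regulators are near or below those of the array as a whole.

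**Figure D2:**
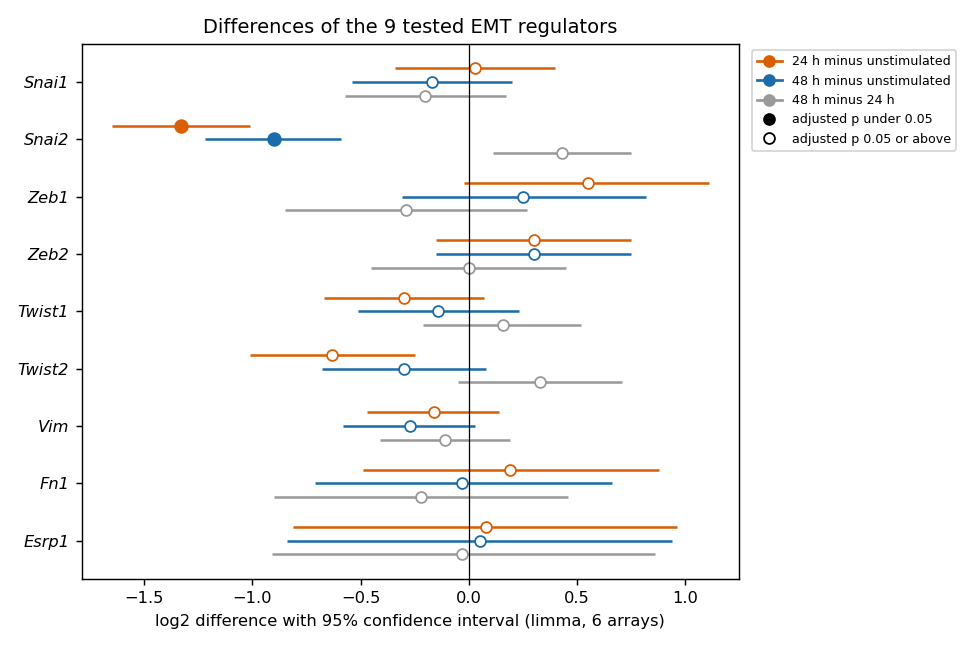
Difference of mean levels (x axis, log2) with its 95% confidence interval for the 9 tested regulators (y axis), for each time with CSF-1 against unstimulated cells and for 48 h against 24 h. Filled points passed an adjusted p under 0.05: they are Snai2 at -1.33 and -0.90. Twist2 at 24 h (-0.63) also has an interval that leaves out 0, as has Snai2 from 24 h to 48 h (0.43).

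The epithelial members were faint or divided between probes. The Epcam probe is 60 bases long and its ends lie 829 bases apart at chr17:88048972-88049800 of mm9. It had spot signals of 23.4 and 16.7 in unstimulated cells, 30.3 and 34.7 at 24 h, and 12.2 and 30.3 at 48 h. It was well above background on the second 48 h array and on no other, so Epcam was not tested and no fold is given.

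Esrp1, an RNA-binding protein that holds epithelial splice forms in place, was measured by a probe at chr4:11284629-11284688 of mm9 that was well above background on all arrays. Its levels were -2.56 and -3.05 without CSF-1, -2.38 and -3.08 at 24 h, and -2.40 and -3.11 at 48 h. The groups overlapped, and the first array was the higher one in each. The difference was 0.08 at 24 h (interval -0.81 to 0.96) and 0.05 at 48 h (interval -0.84 to 0.94). A second Esrp1 probe, at chr4:11260208-11260267, was well above background on all arrays but flagged as an outlier spot on the second array of each stimulated group, and was left out for that reason. Its levels on the arrays without a flag were 2.71 and 1.63 in unstimulated cells, 2.2 on the first 24 h array and 2.24 on the first 48 h array, both between the unstimulated values. The flagged spots read 3.15 at 24 h and 3.74 at 48 h. With flagged spots kept, that probe stood for Esrp1 and the difference was 0.51 and 0.82, with limma adjusted p = 0.659 and 0.454.

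The label of an epithelial line was set against markers. Cdh1, which encodes E-cadherin, was well above background on 0 of the 6 arrays, and of the 8 epithelial markers 5 were well above background on all arrays. Levels of Krt8 were -3.04 and -2.37 without CSF-1, and it was well above background on all 6 arrays. The summed level of the 8 markers, in multiples of the array's 75th percentile, was 2.48 to 2.82 without CSF-1, 2.55 to 2.61 at 24 h and 3.29 to 3.30 at 48 h. These transcripts thus showed keratin signal but no E-cadherin signal, and Epcam on 1 array.

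Genes whose levels followed Snai2 most closely across the 6 arrays were Podnl1, with a Pearson r of 0.9978, and Snx15, with 0.9977. The differences of Podnl1 were -1.91 at 24 h and -1.21 at 48 h, and those of Snx15 were -0.74 and -0.49. The arrays form 3 groups that set much of such a correlation, and 48 genes had an r above 0.99.

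The wider EMT program was described with 128 other EMT genes in 7 lists. Of these, 103 were tested, and 41 were called at 24 h (19 up, 22 down) and 34 at 48 h (15 up, 19 down), beside the 14% of all genes at each time. At both times 30 were called, 13 up and 17 down. These counts rested on all arrays being in the fit. At 24 h they were 20 and 11 without the first and the second unstimulated array, 24 and 8 without the first and the second 24 h array, and 25 without the first 48 h array. At 48 h they were 12 and 8 without the unstimulated arrays, 17 without the second 24 h array, and 9 and 14 without the 48 h arrays. From 24 h to 48 h limma called 0 of the 103 by adjusted p, and 23 had an unadjusted p under 0.05.

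Most mesenchymal structural and surface genes fell. Of the 22 tested, 13 fell and 1 rose at 24 h, and 12 fell and 1 rose at 48 h. Among all genes, 5.99% and 7.38% were called lower at the 2 times, and 8.02% and 6.58% higher. Their median change was -0.88 and -0.85, where that of all genes was 0.037 and -0.044, and under each other processing it lay between -1.16 and -0.79 at 24 h and between -0.95 and -0.73 at 48 h. Acta2, the smooth muscle actin of contractile mesenchymal cells, had levels of 3.88 and 4.61 without CSF-1, 1.42 and 2.55 at 24 h, and 0.48 and 1.05 at 48 h. Its change was -2.26 (limma adjusted p = 0.0345) and -3.48 (limma adjusted p = 0.012). Pdgfrb, a growth factor receptor of mesenchymal cells, fell by 1.91 and 1.12 on the log2 scale, and Fbn1, the microfibril protein fibrillin 1, fell by 1.28 and 1.57. The gene that rose at both times was Tnc, which encodes the matrix protein tenascin C, from -0.80 and 0.02 without CSF-1 to 2.07 and 2.93 at 24 h and 1.51 and 2.30 at 48 h.

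Of the genes in that list named whatever their result, Cdh2 and Cd44 did not pass. Cdh2, which encodes N-cadherin, differed by -0.43 and -0.46 (limma adjusted p = 0.0772 and 0.0645), with every stimulated array below both unstimulated ones. Cd44, the hyaluronan receptor, differed by 0.09 and 0.30. Without single arrays the count of mesenchymal genes that fell at 24 h was 6 and 1 (first and second unstimulated array), 4 and 0 (first and second 24 h array), 8 and 11 (first and second 48 h array), while the median lay between -0.92 and -0.82. At 48 h the count was 3 and 1 without the unstimulated arrays, 11 and 5 without the 24 h arrays and 2 and 5 without the 48 h arrays, with medians from -0.91 to -0.73.

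**Figure D3:**
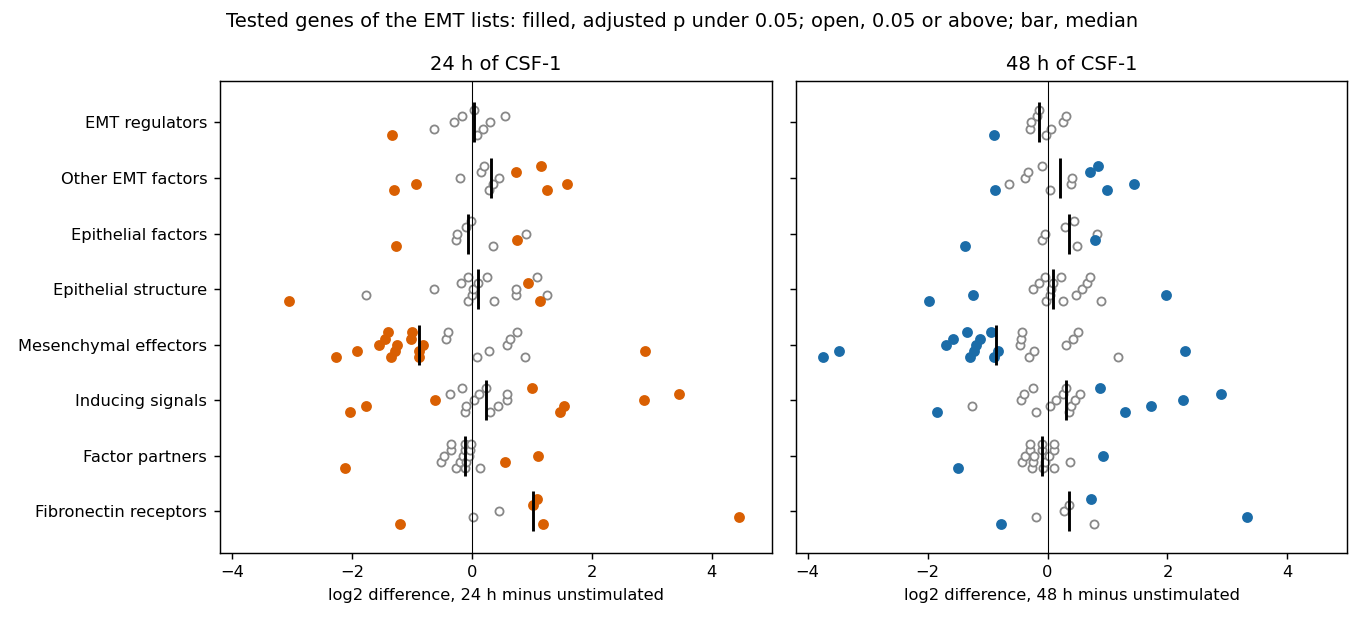
Difference from unstimulated cells (x axis, log2) after 24 h (left) and 48 h (right) for every tested gene of the regulators and of the 7 other EMT lists (y axis). Filled points had an adjusted p under 0.05, open points did not, and black bars are list medians; genes not well above background in one group are drawn at their fitted difference. The regulators gather near 0 with Snai2 at the left, and most mesenchymal effectors lie left of 0, with medians of -0.88 and -0.85.

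Other transcription factors tied to EMT moved in both directions. Of 12 tested, 4 rose and 2 fell at 24 h, and 4 rose and 1 fell at 48 h. Among all genes, 14% were called at each time. Sox9 rose by 1.59 and 1.45 on the log2 scale, Sox4 by 1.25 and 0.84, and Tbx3 by 1.16 and 0.99, while the forkhead factor Foxc1 fell by 0.93 and 0.87. Prrx1, a homeobox factor of mesenchymal cells, rose by 0.74 at 24 h (limma adjusted p = 0.0199) and was 0.40 higher at 48 h (limma adjusted p = 0.0874). The others called, Prrx2 at 24 h (-1.29) and Hmga2 at 48 h (0.71), are named because the counts are small and were chosen after their values were seen, as are those so marked in the lists that follow. The levels of Sox9 went from 1.54 and 1.65 to 3.23 and 3.14 at 24 h and to 3.00 and 3.08 at 48 h.

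Factors that maintain the epithelial state were next, with the epithelial structures they serve. Of 8 such factors tested, 1 rose and 1 fell at each time, where 14% of all genes were called: Klf5 rose by 0.75 and 0.79, and Gata3 fell by 1.27 and 1.37. Ovol2 differed by -0.02 and -0.05, Klf4 by -0.24 and 0.49, and Grhl2 by 0.90 and 0.82 (limma adjusted p = 0.0984 and 0.123). Esrp2, the paralog of Esrp1, was well above background on 5 of the 6 arrays and was not called, and no fold is given. Ovol1 was well above background on 0 arrays.

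Of 17 epithelial structural genes tested, 2 rose and 1 fell at 24 h, and 1 rose and 2 fell at 48 h, a share near the 14% of all genes. Chosen after their values were seen, Jup rose by 0.93 at 24 h, and Krt7 was called lower at 48 h, where it was well above background on 1 of 2 arrays, so that no fold is given. The simple epithelial keratin gene Krt8 rose at 48 h, by 1.98 (limma adjusted p = 0.0106), from -3.04 and -2.37 to -0.88 and -0.58, and its difference at 24 h was 0.74 (limma adjusted p = 0.112). Krt18, the partner of Krt8, was not well above background in unstimulated cells and was at least 1.86-fold higher at 24 h and at least 1.44-fold higher at 48 h, neither past the threshold (limma adjusted p = 0.0522 and 0.118). Pkp2, a desmosome protein, was at least 2.01-fold lower at 24 h, where it was not well above background, and was called lower at 48 h, where 1 of 2 arrays was well above background. The tight junction gene Cldn7 differed by 0 and 0.04.

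Genes of transforming growth factor and other signaling tied to EMT showed opposite movements within one family. The list is not limited to signals that start EMT, and also holds genes that restrain such signaling, Smad6 and Tgif1 among them. Of 19 genes tested, 5 rose and 3 fell at 24 h, and 5 rose and 1 fell at 48 h. Among all genes, 14% were called at each time. Those not described below, chosen after their values were seen, were Tgif1 (1.47 and 1.30) and Hif1a (1 and 0.88), which rose at both times, and Smad6, called lower at 24 h, where it was well above background on 1 of 2 arrays, so that no fold is given. The transforming growth factor gene Tgfb1 had levels of -0.21 and 0.01 without CSF-1, 1.34 and 1.52 at 24 h and 1.58 and 1.68 at 48 h, a rise of 1.53 and 1.73 (limma adjusted p = 0.0047 and 0.00314). Tgfb2 went from -0.73 and -0.93 to -2.74 and -2.44 at 24 h and to -2.63 and -2.72 at 48 h, and it fell by 1.76 and by 1.84 (limma adjusted p = 0.00423 and 0.00337). Tgfb3 differed by 0.31 and 0.39, neither called, and the receptor gene Tgfbr2 fell by 0.62 at 24 h (limma adjusted p = 0.0263) and was 0.45 lower at 48 h (limma adjusted p = 0.058). The Notch ligand gene Jag1 rose by 3.45 and 2.90. Hgf, the scatter factor, was not well above background without CSF-1 and was at least 1.6-fold higher at 24 h. It was also called at 48 h, where 1 of 2 arrays was well above background and the lower limit was only 1.05-fold. With Hgf at these limits the median of the list was 0.24 at 24 h and 0.25 at 48 h.

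Among genes of proteins that pair or act with the regulators, 18 were tested. Of these, 2 rose and 1 fell at 24 h, and 1 rose and 1 fell at 48 h, near the 14% of all genes called at each time. Id2, an inhibitor of basic helix-loop-helix factors, fell by 2.12 and 1.49, from 1.32 and 1.45 to -0.73 on both 24 h arrays and to -0.26 and 0.04 at 48 h. Its relative Id1 differed by -0.34 and 0.11. The kinase gene Pak1 rose by 1.1 and 0.92, and Kdm1a, chosen after its value was seen, rose by 0.56 at 24 h. Tcf4, an E protein that pairs with Twist factors and was counted among the other transcription factors, differed by 0.15 and 0.39.

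Receptors for fibronectin rose in part while Fn1 itself did not change past the threshold. Of 7 tested, 4 rose and 1 fell at 24 h, and 2 rose and 1 fell at 48 h. Among all genes, 14% were called at each time. Itgb3, the integrin beta 3 chain, was not well above background without CSF-1 and was at least 14.6-fold higher at 24 h and at least 6.66-fold higher at 48 h. Itga5, the alpha chain of the main fibronectin receptor, rose by 1.02 at 24 h (limma adjusted p = 0.0386) and was 0.77 higher at 48 h (limma adjusted p = 0.0748), and its partner Itgb1 differed by 0.46 and 0.27. Itgb8, chosen after its value was seen, rose by 1.09 at 24 h. Sdc4 rose by 1.18 and 0.73, Itgb5 fell by 1.20 and 0.78, and Itgav differed by 0.02 and -0.20.

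Markers of other cell types moved beside these results. Their counts stand beside the 14% of all genes called at each time. Of 14 macrophage markers, 8 were tested and 3 rose at each time: Mrc1 by 4.27 and 3.56, Cd14 by 0.87 and 0.69, and Cd53, at least 17.3-fold and 29-fold higher than in unstimulated cells, where it was not well above background. Lyz2 and Spi1 were well above background on 0 arrays. Itgam was well above background on all 6, with levels of 5.4 and 5.23 without CSF-1, and differed by -0.43 and -0.65. Also on all 6, Fcer1g differed by 0.03 and 0.06, Ptprc by 0.68 and 0.15, and Adgre1 by 0.19 and 0.18. None of these differences was called. The summed level of the list, in which Itgam weighs most, was 43.7 to 49.2 without CSF-1, 37.8 to 45.4 at 24 h and 31.7 to 41.1 at 48 h. Of 8 fibroblast markers, 7 were tested. At 24 h 2 rose and 4 fell, and at 48 h 1 rose and 4 fell, and those that fell were Pdgfrb, Col1a1, Col1a2 and Col3a1, which the mesenchymal list also holds. Dcn rose at both times and Pdgfra at 24 h, and Lum was well above background on 0 arrays. The summed level of the fibroblast list, in which Col1a1 and Col1a2 weigh most, was 331 to 333 without CSF-1, 140 to 150 at 24 h and 126 to 168 at 48 h. Of 6 endothelial markers, 4 were tested, and Cdh5 was called higher at both times. In unstimulated cells Cdh5 was well above background on 1 of 2 arrays, so that no fold is given. Emcn and Cldn5 were well above background on 0 arrays. The summed level of the endothelial list, in which Kdr weighs most, was 18.8 to 25.4, 20.5 to 24.0 and 18.7 to 21.6 in the 3 groups. The part of other cell types in the changes above was not tested.

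**Figure D4:**
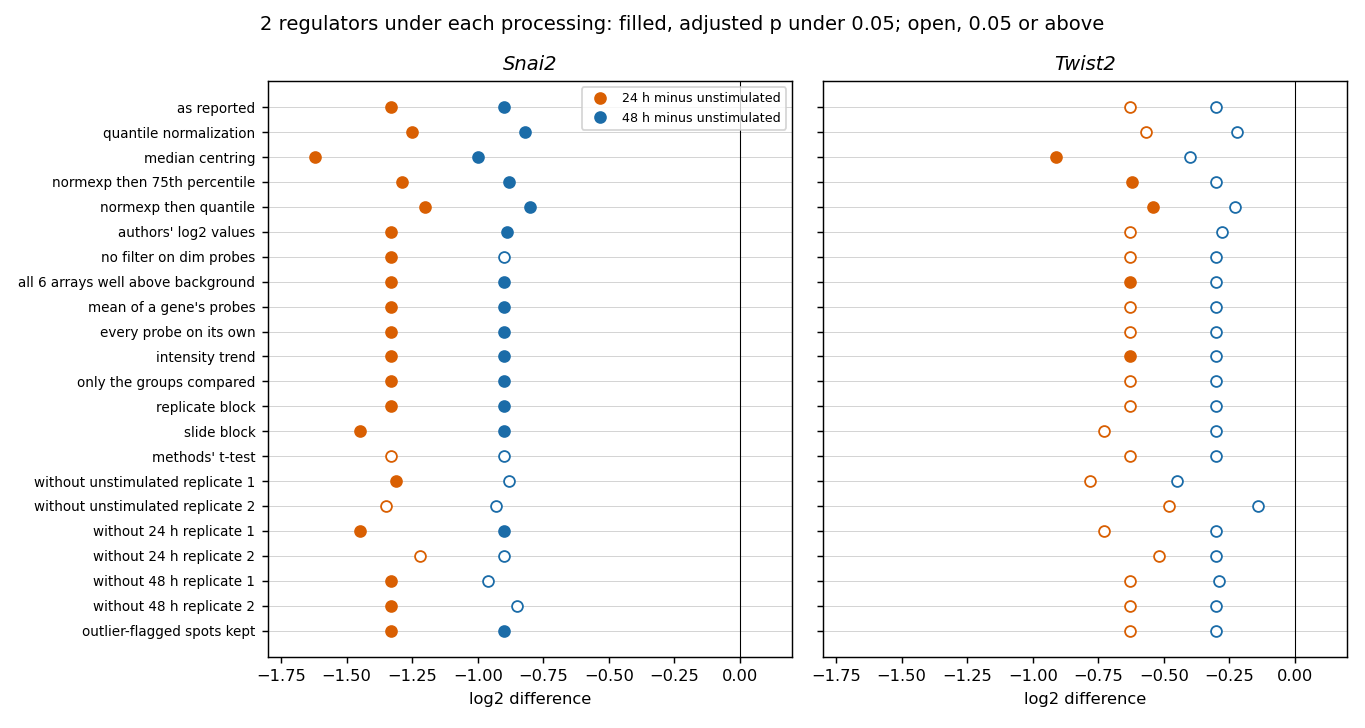
Difference from unstimulated cells (x axis, log2) for Snai2 (left) and Twist2 (right) at 24 h and 48 h under each processing of the data (y axis). Filled points had an adjusted p under 0.05 and open points did not. Snai2 lies between -1.62 and -1.20 at 24 h and between -1 and -0.80 at 48 h, and Twist2 at 24 h between -0.91 and -0.48.

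Across 21 other ways of processing the data, the direction of the Snai2 change was the same. It was called in 18 of them at 24 h and in 14 at 48 h. The difference between 24 h and 48 h was between 0.32 and 0.61 and was called in none (limma adjusted p, or that of the methods' t-test, from 0.151 to 0.588). Twist2 at 24 h was called in 5, and Twist1 at 24 h in 1. No other regulator was called under any of them, at either time, and the differences of Snai1, Zeb1, Zeb2, Twist1, Vim, Fn1 and Esrp1, none of them called, turned in sign in at least 1 of the 3 comparisons.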

How the data were processed

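RNA of N18-Fms cells was hybridised to 6 single-color Agilent mouse arrays, 2 per group. The authors deposited each array as the output of Agilent Feature Extraction 11.0.1, whose processed spot signal is an intensity with background subtracted and not normalized between arrays. A series table, deposited as log2 values, was set against them, and 99.78% of the differences between arrays over 44323 probes lay within 0.05 of those in the log2 signal, apart from a constant for each array. The baseline of each probe in it is unstated, and the medians of its columns ran from -0.038 to 0.173.

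Spots flagged as outliers (170 to 301 per array) were left out, spots of a probe averaged, the 75th percentile of the array (signals of 550.3 to 610.9) subtracted on the log2 scale and the brightest probe taken for each gene. A gene entered the test if 1 or more groups had it well above background on both of their arrays. The 2-sided test was that of limma 3.58.1 in R 4.3.3 (eBayes after lmFit, 3 residual and 2.39 prior degrees of freedom), first tested on simulated data. Files were read by the data.table package, version 1.17.8. The number of arrays limits the precision. For a gene not well above background in one group, the fold is a lower limit, taken against the lowest signal well above background on each array.

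Members, lists and tests were chosen with earlier results of these data known. The genes named are the members, a fixed set from the lists whatever their result, up to 4 per list with the largest mean change among genes called at 24 h and 48 h, the 2 genes most like Snai2 and Csf1r. Acta2, Pdgfrb, Fbn1 and Tnc are those 4 in the mesenchymal list. Sox9, Sox4, Tbx3 and Foxc1 are those of the other factors, and the markers of other cell types come from the marker lists. Some genes of the lists are counted but not reported by name here. Alternatives were quantile normalization, median centring, normexp with an offset of 50 followed by either scaling, the authors' log2 values, no or a stricter filter on dim probes, other handling of a gene's probes, an intensity trend, fits of 2 groups, a replicate block, a slide block, the methods' t-test, each array left out, and, added after seeing the data, outlier spots kept.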

Additional observations from a re-analysis of the deposited data

How the results depend on the processing

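The limits are those of 2 arrays per group. The 24 h group lay on both slides, and the dim probe of Epcam was limited by signal over background. The Esrp1 probes were well above background on all arrays, and 1 of them was left out for outlier flags.

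Regulators called at 24 h, 1 in the report, were 3 with median centring, 2 with normexp and either scaling, with all 6 arrays well above background or with an intensity trend, and 0 with the methods' t-test, which called 0 of all genes after Benjamini-Hochberg. At 48 h the count was 0 with no filter on dim probes and with the t-test, and by the legend's rule it was 1 with median centring. Leaving out each array gave 0 to 1 at both times. Listed EMT genes called at 24 h were 25 with no filter, 23 with a slide block, 0 with the t-test and 8 to 35 with an array left out. At 48 h they were 13 with no filter, 0 with the t-test and 8 to 31 with an array left out. From 24 h to 48 h they were 1 with quantile normalization or an intensity trend, and 2 and 3 with normexp and 75th percentile or quantile scaling. All genes called at 24 h were 1319 with no filter, 1079 with a slide block, 0 with the t-test and 422 to 2361 with an array left out. At 48 h they were 870 with no filter, 5477 with an intensity trend, 2116 with only the groups compared or a slide block, 0 with the t-test and 638 to 1929 with an array left out. From 24 h to 48 h they were 6 with quantile normalization, 5 with median centring or all 6 arrays well above background, 210 and 314 with normexp, 195 with an intensity trend and 0 to 57 with an array left out.

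Values that turned in sign, none of them called, were at 24 h Snai1 at -0.25 with median centring and 0 with normexp, Fn1 at -0.09 with median centring, and Esrp1 at -0.11 with quantile normalization, -0.21 with median centring, -0.09 with normexp and quantile and -0.27 with a slide block. At 48 h they were Fn1 at 0.04 and 0.03 with quantile normalization without and with normexp, and Esrp1 at -0.03 with quantile normalization and -0.05 with median centring. From 24 h to 48 h they were Zeb2 at 0 with normexp and quantile and -0.18 with a slide block, Vim at 0.07 with median centring, and Esrp1 at 0.08 with quantile normalization, 0.16 with median centring, 0.09 with normexp and quantile, 0.32 with a slide block and 0.31 with outlier spots kept. With an array left out, values that turned ranged at 24 h from -0.13 to 0.19 for Snai1, -0.12 to 0.50 for Fn1 and -0.27 to 0.43 for Esrp1. At 48 h they ranged from -0.01 to 0.52 for Zeb1, -0.30 to 0.01 for Twist1, -0.34 to 0.28 for Fn1 and -0.31 to 0.40 for Esrp1. From 24 h to 48 h they ranged from -0.18 to 0.18 for Zeb2, 0 to 0.31 for Twist1, -0.47 to 0.03 for Fn1 and -0.38 to 0.33 for Esrp1. The causes were not tested.

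Whether the replicate numbers pair the arrays is not settled: the deviations of same-numbered arrays correlated by 0.128, 0.094 and 0.199 between groups, not all of them over 0.1, and the arrays were treated as unpaired. With a replicate block the Snai2 change was -1.33 and -0.90 (limma adjusted p = 0.00924 and 0.0181), and 3800 genes were called at 24 h and 3967 at 48 h.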
